A study of Bos taurus with 16 samples.

Results

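The mitochondrial ribosome was followed through 77 nuclear genes in mammary gland biopsies of 16 heifers. The members are the genes whose probe sets carry exactly 1 symbol starting with MRPL or MRPS and a number in the array annotation, out of 18444 genes with 1 symbol. By symbol, 48 belong to the large subunit (MRPL) and 29 to the small subunit (MRPS). Genes were chosen by symbol, and where a gene had 2 probe sets (MRPL23 and MRPS17) the one used was selected on its measured mean over all 16 arrays. These levels are given as a description. The rule for members did not use the contrast between the feeding groups, but the list was chosen with earlier results of these data known.

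Mitochondria carry their own ribosome, built from RNAs of the mitochondrial genome and proteins encoded in the nucleus, made in the cytosol and imported. It translates the few proteins of the mitochondrial DNA, which are subunits of the respiratory chain and of ATP synthase. The large subunit forms peptide bonds and holds the exit tunnel, and the small subunit binds and decodes the messenger RNA. Part of the proteins have counterparts in bacterial ribosomes, and the others are particular to mitochondria. In the lactating gland the epithelium is rich in mitochondria, which supply the energy for milk synthesis and secretion.

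The heifers, of the Parda de Montaña breed, were allotted to their feeding at random at birth, and a needle biopsy was taken when their first lactation ended. In the first 6 months of life 8 of them ate a starter concentrate besides the milk of their dams (CON), and the other 8 lived on that milk (NOCON). All suckled 2 times a day for 30 min. From 6 to 15 months each group was divided equally between 2 rations of alfalfa hay and concentrates, with 67 parts forage to 33 parts concentrate or 87 to 13. The labels used here do not tell which heifer had which ration, so it could not enter the fit. Each heifer gave 1 array, named below by group and number. Values are expression on the log2 scale, and signed differences are CON minus NOCON.

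The arrays held 26773 probe sets, with array medians from 4.25 to 4.57. The number of arrays, 8 per group, limits the precision. The 6 milk protein genes, CSN2 and CSN1S2 among them, stood between 11.78 and 12.38 in the group means in both groups, close to the highest value on any array (12.66). A set of 5 low-correlation arrays stood apart from the rest: CON 2, CON 6, CON 7, NOCON 1 and NOCON 5 had median correlations with the other arrays from 0.866 (CON 7) to 0.974, against at least 0.986 for the other 11. Interquartile ranges of the values were 1.49 in CON 7, 1.68 in NOCON 1, 1.73 in CON 6 and 1.74 in CON 2. They were 1.98 in NOCON 5 and 1.96 to 2.15 in the other 11. CON 7 also had the highest array median (4.57). The part of the narrower ranges in the member values was not tested. Differences between the groups are therefore given with all 16 arrays and also with the 11, which hold 5 CON and 6 NOCON heifers. In a biopsy, fewer cells of a type and less RNA per cell cannot be told apart.

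Over the whole series, 16 of 26773 probe sets passed limma at an adjusted p of 0.05 (0.0598%), and 0 of the 77 members did. At an unadjusted limma p under 0.05, 23 members were lower in CON and 0 higher, against 5.1% of all probe sets lower (5.28% of genes with 1 symbol) and 3.57% higher. The exact permutation test gave the same number, with 23 members at an unadjusted p under 0.05 against 10.4% of all probe sets in either direction. Means were lower in CON for 73 of 77 members, against 48.1% of all probe sets and 51.1% of genes with 1 symbol. The median difference of the members was -0.20. It was 0.01 over all probe sets, -0.0037 over genes with 1 symbol and -0.04 over the brightest 60% of probe sets. On the 11 arrays, 45 of 77 members had lower means, against 52.3% of all probe sets, and the median difference was -0.03. There, 13 members were lower and 1 was higher at an unadjusted p under 0.05, against 4.88% and 3.75% of all probe sets, and 0 passed after adjustment (lowest adjusted p = 0.13 with limma), against 0.0859%.

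Split by mean level, of the 28 members with a mean above 7, 13 had an unadjusted p under 0.05 and the median difference was -0.33, or -0.10 on the 11 arrays. For the 49 members at 7 or below, these values were 10, -0.15 and 0.0033. The shares of all probe sets above and below a mean of 7 were not computed. Of the brightest 60% of probe sets, 6.35% were lower in CON at an unadjusted limma p under 0.05, against 5.1% of all. Means of 5 members lay under the lowest array median, namely MRPL15 (3.49), MRPL32 (3.95), MRPS35 (3.885), MRPS17 (4.13) and MRPS9 (4.17). The probe set listed under both MRPL12 and SLC25A10, which is no member, differed by -0.07 (SE 0.16).

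**Figure D1:**
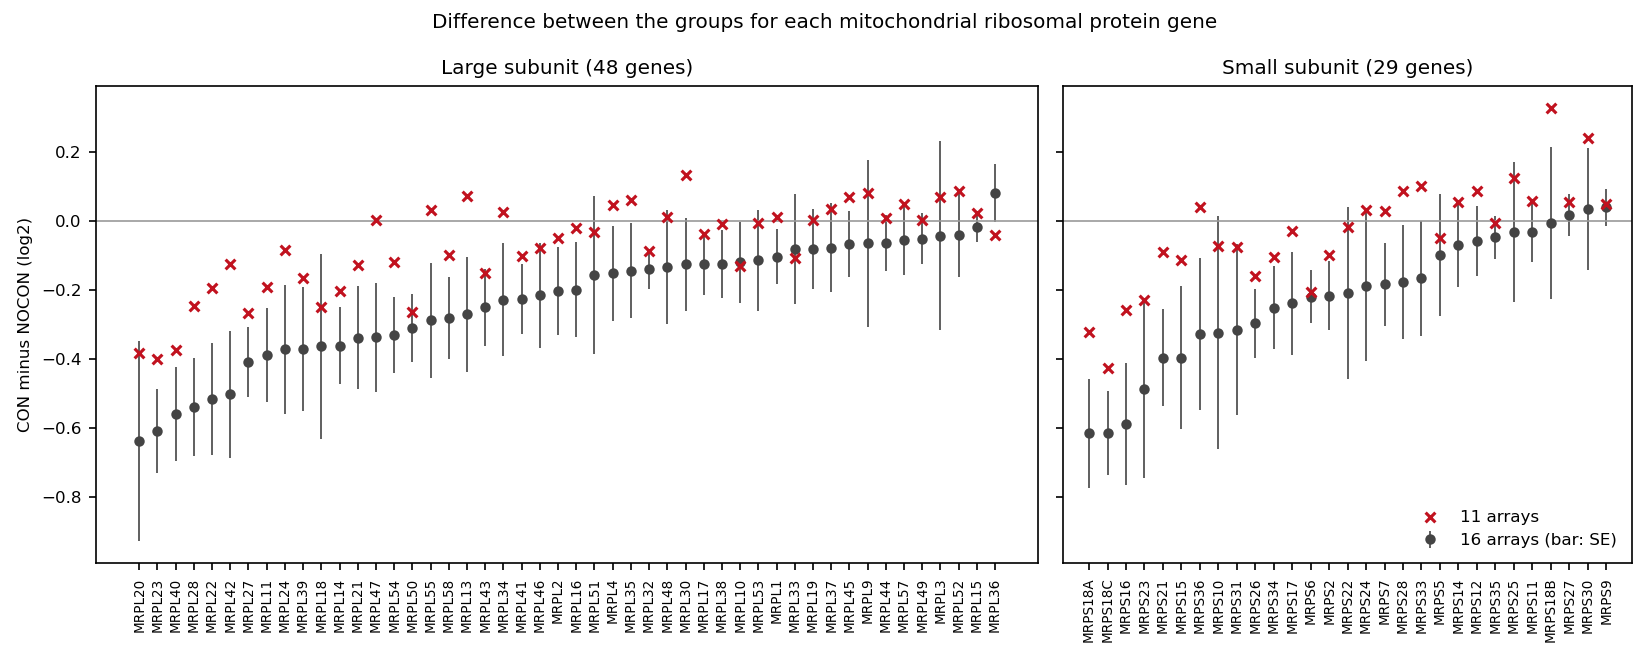
CON minus NOCON difference (log2, y axis) of each member gene (x axis), sorted within the large (48 genes) and the small subunit (29 genes); dots with SE bars are from all 16 arrays and crosses from the 11 arrays without CON 2, CON 6, CON 7, NOCON 1 and NOCON 5. With 16 arrays 73 of 77 dots lie below 0, from -0.64 (MRPL20) to 0.08 (MRPL36), and with 11 arrays 45 crosses do.

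Among the proteins of the large subunit, 47 of 48 genes had lower means in CON, with a median difference of -0.20, and 16 had an unadjusted p under 0.05. On the 11 arrays these numbers were 29 of 48, -0.04 and 8. MRPL23, which in the bacterial counterpart lies beside the exit tunnel, ran in CON from 7.45 (CON 7) over a median of 8.02 to 8.25 (CON 3). In NOCON it ran from 8.32 (NOCON 2) over 8.545 to 8.97 (NOCON 5). Every CON array lay below every NOCON array. The difference was -0.61 (SE 0.12, adjusted p = 0.0971 with limma), or -0.40 on the 11 arrays. In the two-sided exact permutation test the unadjusted p was 0.000155, and none of the 12870 regroupings could give a smaller one. Every probe set whose groups do not overlap gets this value, and the exact p-values below are unadjusted too.

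The other probe set of MRPL23 did not show this gap. At a mean of 6.37, it ran from 5.845 to 7.20 in CON and from 5.96 to 6.96 in NOCON, so that the groups overlapped over most of their range. Its difference was 0.02 (SE 0.17, adjusted p = 0.97 with limma). The result for MRPL23 thus rests on 1 of its 2 probe sets. The probe sets of MRPS17 also differed in sign, with -0.24 (SE 0.15) for the brighter and 0.10 (SE 0.10) for the dimmer, both below the lowest array median.

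MRPL27, whose bacterial counterpart reaches toward the site of peptide bond formation, ran from 8.48 (CON 7) over 9.09 to 9.25 in CON and from 9.25 over 9.40 to 9.80 (NOCON 5) in NOCON. The groups did not overlap, but the highest CON array (9.250) and the lowest NOCON array (9.254) almost met. The difference was -0.41 (SE 0.10, adjusted p = 0.30 with limma; exact p = 0.000155), or -0.27 on the 11 arrays. MRPL40, particular to mitochondria, ran from 4.90 over 5.46 to 5.61 in CON and from 5.60 over 5.825 to 6.496 in NOCON. Here 7 of 8 CON arrays lay below the lowest NOCON array, and NOCON 1 and NOCON 5 were the highest. Its difference was -0.56 (SE 0.14, adjusted p = 0.296 with limma; exact p = 0.000311), or -0.37 on the 11 arrays.

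MRPL28, a further protein with a bacterial counterpart, ran from 5.84 over 6.19 to 6.80 in CON and from 6.425 over 6.76 to 7.24 in NOCON. Its groups overlapped through CON 5 and CON 8, and it differed by -0.54 (SE 0.14, adjusted p = 0.33 with limma), or by -0.25 on the 11 arrays. MRPL20, whose bacterial counterpart binds early in subunit assembly, had one of the 2 largest spreads of the large subunit. It ran from 6.64 (CON 7) over 8.69 to 9.13 in CON and from 8.35 (NOCON 1) over 9.265 to 9.50 in NOCON. Both low ends were single arrays of low correlation. Its difference was -0.64 with an SE of 0.29, and on the 11 arrays -0.38, where the 5 CON arrays (8.67 to 9.13) lay below the 6 NOCON arrays (9.18 to 9.50). MRPL18, whose bacterial counterpart binds 5S rRNA, had the other: it ran from 5.80 (CON 7) over 7.60 to 7.82 in CON and from 6.59 (NOCON 1) over 7.87 to 8.06 in NOCON, with a difference of -0.36 (SE 0.27), which was -0.14 without CON 7 and -0.25 on the 11 arrays.

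Complete separation of the groups over 16 arrays was found for 4 members, all lower in CON: MRPL23, MRPL27, MRPS18A and MRPS18C. Over all probe sets 0.12% separated with CON below and 0.056% with CON above. With the 11 arrays 6 members separated with CON below, these 4 with MRPL20 and MRPL40, against 0.661% of all probe sets, and 0 with CON above, against 0.377%.

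In the small subunit, 26 of 29 genes had lower means in CON (median difference -0.21), and 7 had an unadjusted p under 0.05. The 11 arrays gave 16 of 29, -0.02 and 5. The subunits were thus alike in the medians of their differences, and no test between them was made. Some symbols of the list are known from structures or biochemistry of other mammals to mislead about the subunit, since MRPS18A and MRPS30 sit in the large subunit and MRPS36 is a component of the 2-oxoglutarate dehydrogenase complex. With subunits assigned by structure, 48 of 50 large and 24 of 26 small subunit genes had lower means in CON, with medians of -0.20 each.

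The 3 paralogues of bacterial S18 differed among themselves. MRPS18C, the small subunit copy, ran from 7.475 (CON 7) over 8.04 to 8.40 (CON 1) in CON and from 8.43 (NOCON 6) over 8.62 to 9.055 (NOCON 1) in NOCON. No CON array reached the lowest NOCON array. The difference was -0.62 (SE 0.12, adjusted p = 0.0971 with limma; exact p = 0.000155), and -0.425 on the 11 arrays.

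MRPS18A, the copy of the large subunit, ran from 6.05 (CON 7) over 7.04 to 7.27 in CON and from 7.29 over 7.40 to 7.85 in NOCON, again without overlap. It differed by -0.62 (SE 0.16, adjusted p = 0.312 with limma; exact p = 0.000155), or by -0.32 on the 11 arrays. MRPS18B, also found in the small subunit, ran from 5.14 (CON 7) over 6.35 to 6.66 in CON and from 5.51 (NOCON 1) over 6.11 to 6.67 in NOCON. The ranges coincided almost fully, and the difference was -0.0046 (SE 0.22). Its sign depended on the arrays: without CON 7 it was 0.14, and on the 11 arrays 0.33, the 1 member with a higher mean in CON at an unadjusted p under 0.05 there. The difference between the paralogues was not tested.

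MRPS16, mutated in a human respiratory chain deficiency, ran from 6.155 (CON 7) over 7.28 to 7.59 in CON and from 7.46 over 7.72 to 8.14 in NOCON. Of the CON arrays 5 of 8 lay below the lowest NOCON array. The difference was -0.59 (SE 0.18, adjusted p = 0.409 with limma), or -0.26 on the 11 arrays. MRPS26, particular to mitochondria, ran from 6.88 over 7.49 to 7.68 in CON and from 7.53 over 7.68 to 7.97 in NOCON, with a difference of -0.30 (SE 0.10, adjusted p = 0.48 with limma), or -0.16 on the 11 arrays.

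The largest spreads of the small subunit were those of MRPS10 and MRPS23, and both came from single arrays. MRPS10, with a bacterial counterpart, ran from 5.63 (CON 7) over 8.005 to 8.47 in CON and from 7.02 (NOCON 1) over 8.31 to 8.40 in NOCON, with a difference of -0.32 (SE 0.34). It was -0.01 without CON 7 and -0.07 on the 11 arrays. MRPS23, particular to mitochondria, ran from 5.77 (CON 7) over 7.74 to 7.93 in CON and from 7.60 over 8.04 to 8.45 in NOCON, with a difference of -0.49 (SE 0.26), which was -0.24 without CON 7 and -0.23 on the 11 arrays.

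**Figure D2:**
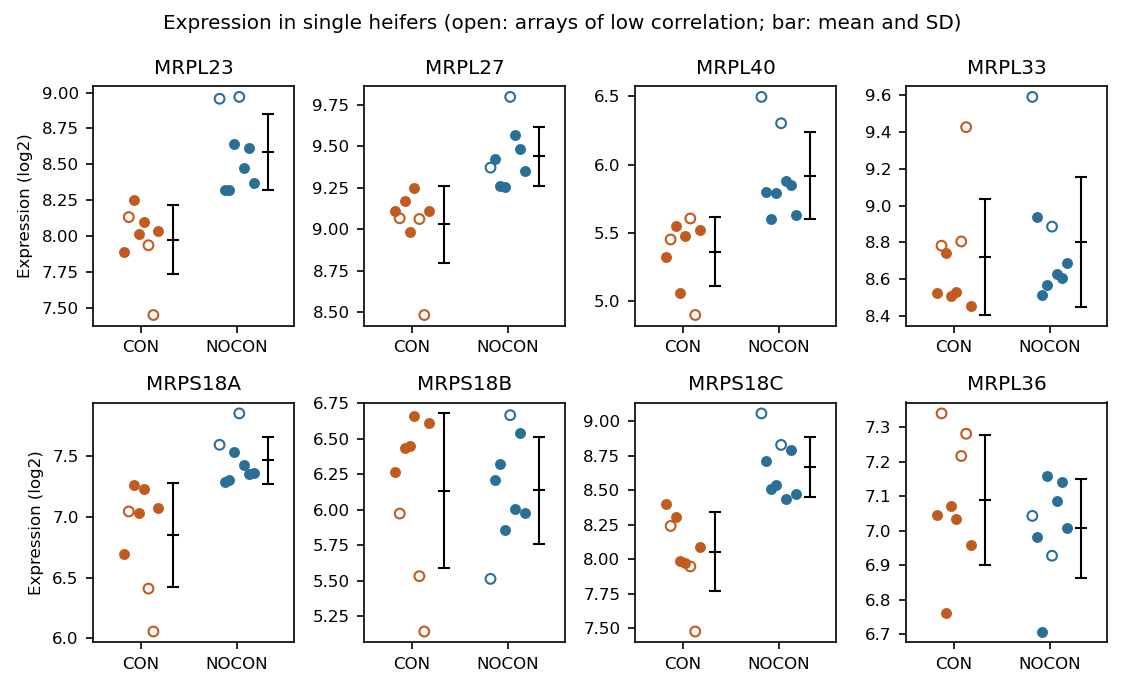
Expression (log2, y axis) of 8 member genes in single heifers of the CON and NOCON groups (x axis); open circles are the 5 low-correlation arrays, and the bars beside them give the mean and SD of all 8 arrays of a group. MRPL23, MRPL27, MRPS18A and MRPS18C do not overlap between groups, MRPS18B covers about the same range in both, and CON 7 and NOCON 1 are the highest arrays of MRPL33 in their groups.

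By origin, of the 46 members with a bacterial counterpart, 44 had lower means in CON (median -0.20, 15 with an unadjusted p under 0.05). Of the 31 that are particular to mitochondria, 29 had (median -0.21, 8 with an unadjusted p under 0.05). Their medians on the 11 arrays were -0.04 and -0.0079, with 10 of 46 and 3 of 31 lower at an unadjusted p under 0.05. Within the small subunit, 1 of 11 mitochondria-specific genes and 6 of 18 with a bacterial counterpart had an unadjusted p under 0.05, or 1 of 11 and 4 of 18 lower on the 11 arrays. The difference between the origins was not tested.

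The 4 members with higher means in CON had small differences. MRPL36, the counterpart of one of the smallest bacterial ribosomal proteins, ran from 6.76 over 7.06 to 7.34 in CON and from 6.71 over 7.03 to 7.16 in NOCON, with a difference of 0.08 (SE 0.08) that turned to -0.04 on the 11 arrays. MRPS9 ran from 3.935 over 4.20 to 4.33 in CON and from 4.08 over 4.13 to 4.23 in NOCON, a difference of 0.04 (SE 0.05), or 0.05 on the 11 arrays. MRPS27 ran from 4.18 over 4.34 to 4.49 in CON and from 4.19 over 4.28 to 4.525 in NOCON, a difference of 0.02 (SE 0.06), or 0.06 on the 11 arrays. In all 3 genes the groups overlapped. MRPS30 differed by 0.04, or by 0.24 on the 11 arrays. None of the 4 had an adjusted p under 0.05 with limma, in which they ranged from 0.744 to 0.954.

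Most of the variation of the list lay between single arrays, 1 per heifer. Averaged over members as deviation from each gene's mean over 16 arrays, CON ran from -0.69 (CON 7) over a median of -0.05 to 0.14 (CON 8). NOCON ran from -0.02 (NOCON 8) over 0.08 to 0.37 (NOCON 5). The groups overlapped, with CON 5 and CON 8 above the NOCON median, while CON 7 and NOCON 5 stood at the ends. Without CON 7, CON averaged -0.03 ± 0.13 (SD, n = 7) and NOCON 0.11 ± 0.12 (SD, n = 8). CON 7 was the lowest of all 16 arrays for 55 of 77 members, and NOCON 5 the highest for 30.

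The averages of both subunits lay close together in every heifer. Large subunit genes averaged -0.66 and small subunit genes -0.74 in CON 7, and 0.36 and 0.38 in NOCON 5. The gap between the subunit averages stayed between -0.08 (CON 5) and 0.08 (CON 7), with a mean of -0.0044 ± 0.06 for CON (SD, n = 8) and 0.0044 ± 0.04 for NOCON (SD, n = 8).

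**Figure D3:**
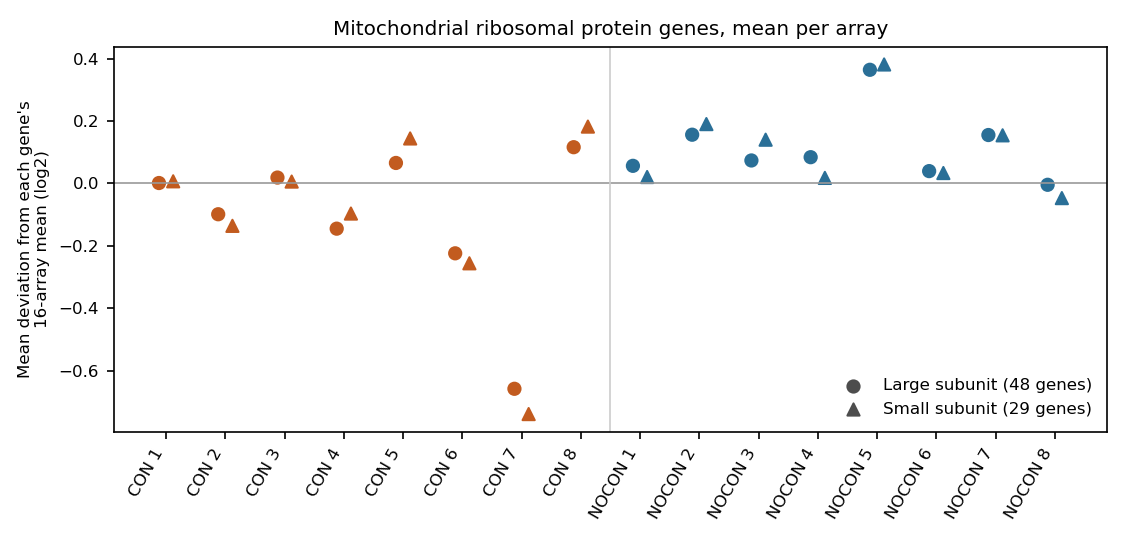
Mean deviation of the member genes from their own 16-array mean (log2, y axis) on each array (x axis), for the large subunit (circles, 48 genes) and the small subunit (triangles, 29 genes), CON left of the line and NOCON right of it. The subunits lie side by side on every array, with CON 7 lowest at -0.66 and -0.74 and NOCON 5 highest at 0.36 and 0.38.

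Not all members followed the arrays that stood apart. In CON 7, 51 of 77 members lay over 0.5 below their own mean, with deviations of -2.34 for MRPS10, -2.23 for MRPL20, -1.99 for MRPS23 and -1.76 for MRPL18. One member, MRPL33, lay over 0.5 above it (9.43). NOCON 1 was split: 17 members lay over 0.5 above their mean, MRPS33 (8.80) and MRPL47 (7.21) highest, and 12 lay over 0.5 below it, MRPL3 (5.90), MRPL18 (6.59), MRPS10 (7.02) and MRPS22 (5.05) lowest. The average of NOCON 1 was 0.04, with a SD over members of 0.508, while in the 11 arrays this SD ran from 0.145 to 0.22. In NOCON 5, 31 members lay over 0.5 above their mean, MRPS24 (5.60) and MRPS28 (5.15) highest, and 0 lay over 0.5 below.

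**Figure D4:**
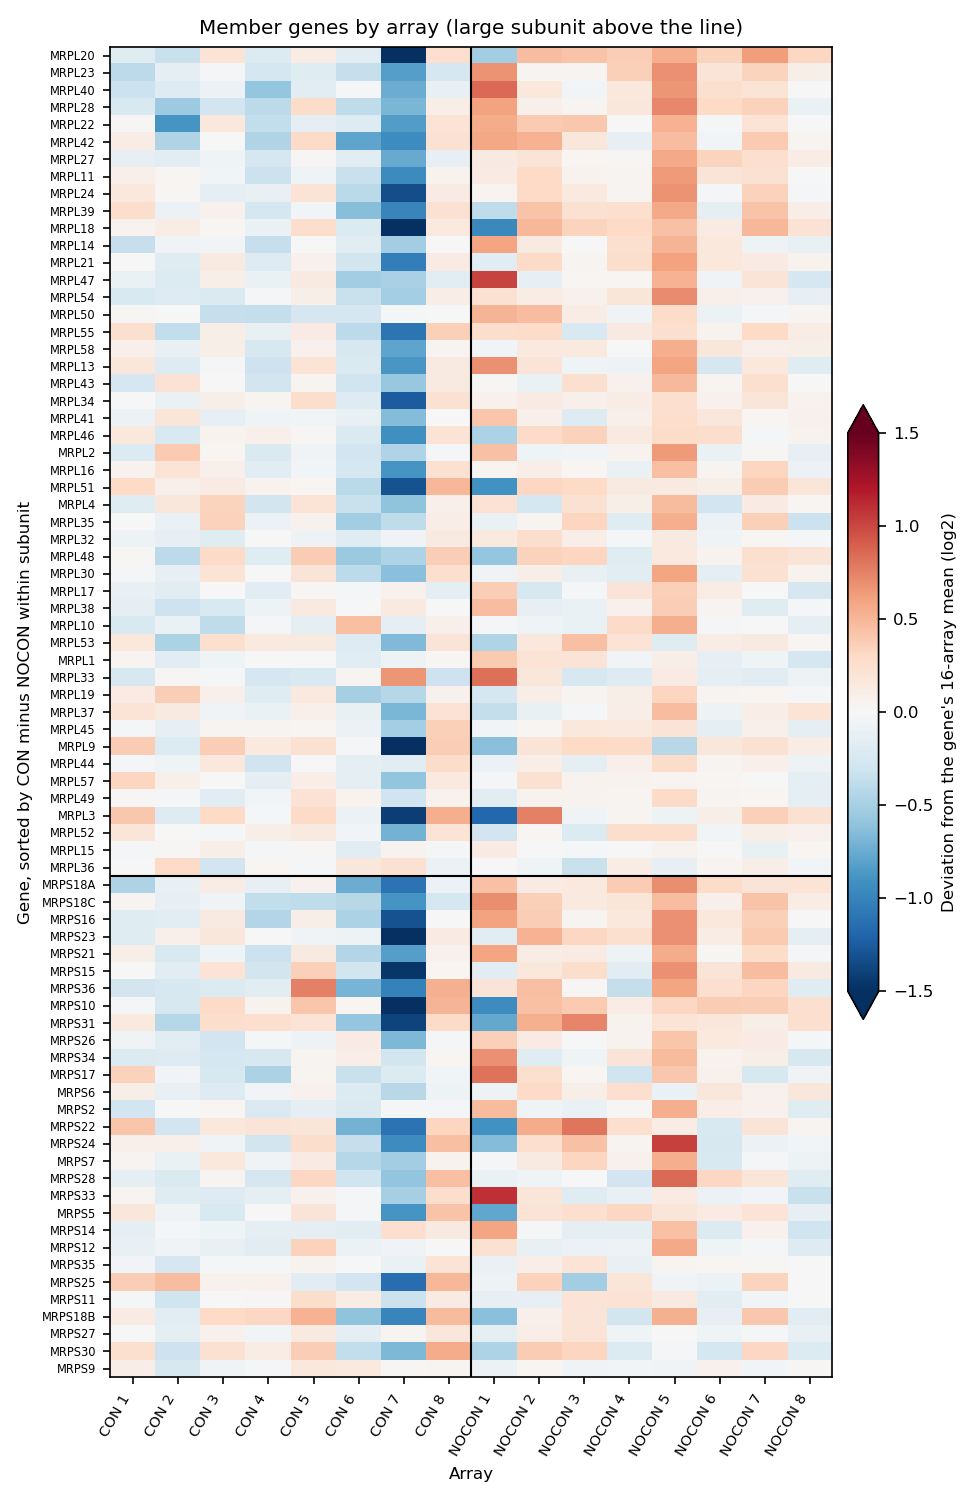
Deviation of each of the 77 member genes (rows) from its own 16-array mean on each array (columns, CON left of the line), in log2 units on a colour scale capped at both ends, red above and blue below the mean. CON 7 is blue for most genes, NOCON 5 is red for most, and NOCON 1 holds 17 genes over 0.5 above and 12 over 0.5 below their means.

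Marker genes of cell types moved on the same arrays. The 18 luminal epithelium markers averaged -0.72 in CON 7 and 0.02 ± 0.09 (SD, n = 7) in the other CON arrays, within a range from -0.72 to 0.11 in CON and from -0.11 to 0.21 in NOCON. Of these 18, 16 had lower means in CON, against 48.1% of all probe sets, and 10 had on the 11 arrays, against 52.3%. ERBB3 and GATA3 had higher means in CON, and KRT8 differed by -0.0083. At an unadjusted limma p under 0.05, 1 was lower (KRT18, -0.30, SE 0.11), and 0 were on the 11 arrays. That share of 5.556% was near the 5.1% of all probe sets. The 9 myoepithelial markers averaged -0.82 in CON 7 and -0.47 in NOCON 1, and the 8 endothelial markers -1.19 and -0.70, the lowest of their groups. The 6 milk protein genes lay on average above their means in CON 7 (0.12). At an unadjusted limma p under 0.05, 2 of them were higher in CON, CSN1S2 (0.12, SE 0.05) and CSN2 (0.10, SE 0.05). Of all probe sets, 3.57% were higher at that p. On the 11 arrays neither was, with CSN1S2 at 0.05 and CSN2 at 0.11. Above their means in CON 7 lay also the 7 neutrophil (0.41), the 7 B and plasma cell (0.38) and the 5 erythrocyte markers (0.33). Nearly all of these markers are dim beside array medians of 4.25 to 4.57, the highest in CON 7. In the group means, neutrophil markers ran from 3.55 to 4.37 and erythrocyte markers from 3.67 (HBB) to 4.33. B and plasma cell markers ran from 3.77 to 4.15, except JCHAIN (6.45 in CON, 6.37 in NOCON). The part of this low level in these averages was not tested. Adipocyte and fibroblast markers averaged -0.18 and -0.27 in CON 7, T and NK cell markers 0.12, macrophage markers -0.04 and skeletal muscle markers 0.19. In NOCON 5 macrophage markers averaged 0.535, neutrophil markers 0.186 and luminal markers 0.165, while endothelial markers averaged -0.35 and myoepithelial markers -0.10. The part of these cell types in the member values was not tested.

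Pairs of members varied together over the arrays. The median Pearson correlation of the 2926 pairs was 0.49 over 16 arrays, and 85.4% of pairs were positive, while the median of all pairs of the 18444 genes was 0 with 50.1% positive. It was 0.51 within the large subunit, 0.45 within the small subunit and 0.47 between the subunits. These values describe 16 arrays that share 1 normalization, and pairs that share a gene are not independent. CON 7 carried part of them: without it the median was 0.34, and on the 11 arrays 0.23 with 75.7% of pairs positive. There the subunits were at 0.22 and 0.24 and the pairs between them at 0.23. Within CON the median was 0.62 and within NOCON 0.29, over 8 arrays each. Median centring gave 0.64 and quantile normalization 0.37 over 16 arrays.

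Among single members, MRPL24, a protein of the exit tunnel region in bacteria, had the highest median correlation with the other members (0.72). MRPL21 (0.70) and MRPL58 (0.69), a peptidyl-tRNA hydrolase that frees stalled mitochondrial ribosomes, followed. MRPL24 ran from 6.17 over 7.46 to 7.71 in CON and from 7.48 over 7.60 to 8.18 in NOCON, MRPL21 from 6.499 to 7.67 and from 7.36 to 8.13, and MRPL58 from 6.83 to 7.71 and from 7.58 to 8.16. In each, CON 7 was the lowest and NOCON 5 the highest of all arrays. On the 11 arrays their medians were 0.39, 0.29 and 0.30.

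MRPL36 (-0.40), MRPL33 (-0.30) and MRPS9 (-0.04) had the lowest median correlations. MRPL33 was at 9.43 in CON 7 and 9.59 in NOCON 1, its highest arrays, and between 8.45 and 8.94 in the other 14. Its correlation with MRPS5 was -0.87 over 16 arrays and -0.40 on the 11. On those 11 arrays the 3 genes had medians of -0.04, 0.09 and 0.05, so the negative median of MRPL33 rests on the 5 low-correlation arrays.

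**Figure D5:**
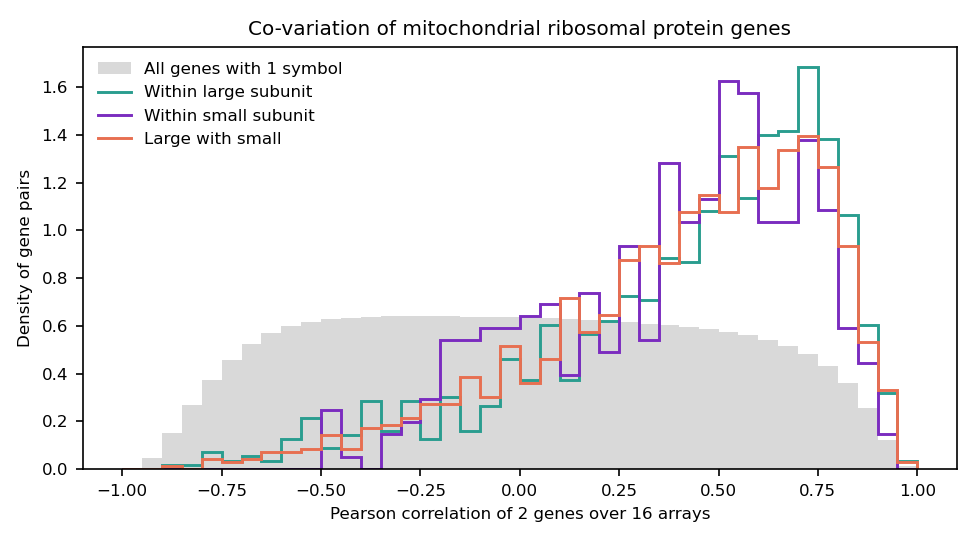
Density (y axis) of Pearson correlations over 16 arrays (x axis) for gene pairs within the large subunit, within the small subunit and between them, drawn as lines over the pairs of all genes with 1 symbol (grey). The medians are 0.51, 0.45 and 0.47 for the members and 0 for all genes.

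In the gene order of cattle assembly ARS-UCD2.0, used for neighbours alone, 1 pair of members lies side by side, MRPL46 and MRPS11, which correlated at 0.575 over 16 arrays and at -0.10 on the 11. MRPS12 lies beside SARS2, the seryl-tRNA synthetase of mitochondria (0.66 and 0.37), MRPL47 beside the complex I gene NDUFB5 (0.71 and 0.17) and MRPL36 beside the complex I gene NDUFS6 (0.08 and 0.20). These values are given as a description.

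Of all probe sets, 5.1% were lower in CON and 3.57% higher at an unadjusted limma p under 0.05, or 4.88% and 3.75% on the 11 arrays. These shares stand beside the counts of the lists below. Of the other genes of mitochondrial translation, those for ribosome proteins with other symbols numbered 5. CHCHD1 differed by -0.38 (SE 0.11) and AURKAIP1 by -0.21 (SE 0.08), 2 of 5 lower at an unadjusted p under 0.05 and 0 higher. The median of the 5 was -0.13, or 0.02 on the 11 arrays, where CHCHD1 was at -0.26 and AURKAIP1 at -0.16. Ribosome assembly and rRNA modification genes were on average lower in 21 of 24 measured genes (median -0.11), 3 with an unadjusted p under 0.05: the helicase DDX28 (-0.27, SE 0.07), the endoribonuclease YBEY (-0.46, SE 0.13) and the assembly factor RBFA (-0.17, SE 0.07). With the 11 arrays 18 of 24 were lower (median -0.05), 4 at an unadjusted p under 0.05, but YBEY, at -0.29, was no longer among them. Of 19 translation factors, 13 had lower means (median -0.04), 1 lower and 1 higher at an unadjusted p under 0.05. These were the initiation factor MTIF2 (-0.15, SE 0.06) and the ribosome recycling factor MRRF. The latter averaged 5.01 ± 0.25 in CON (SD, n = 8) against 4.61 ± 0.17 without concentrate (SD, n = 8), a difference of 0.40 (SE 0.10, adjusted p = 0.329 with limma), or 0.47 on the 11 arrays. The direction of the list as a whole turned: 6 of 19 had lower means without CON 7 (median 0.01), and 7 of 19 with the 11 arrays (median 0.03). Its 1 of 19 genes lower at an unadjusted p under 0.05 (5.263%) was near the share of all probe sets.

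Mitochondrial aminoacyl-tRNA synthetases and the subunits of the tRNA amidotransferase had lower means in 10 of 20 measured genes (median -0.0013), with PARS2 (-0.15, SE 0.05) and GATC (-0.20, SE 0.08) at an unadjusted p under 0.05. With the 11 arrays 6 of 20 had (median 0.03), and 3 were lower and 1 higher at that p, PARS2 at -0.10 and GATC at -0.12. The 6 genes of mitochondrial transcription had a median of -0.07, or 0.0059 on the 11 arrays, with MTERF2 at -0.12 (SE 0.10) and TFB2M at -0.23 (SE 0.20), and 0 at an unadjusted p under 0.05. The 12 nuclear regulators had a median of -0.09 with 9 lower means, and of 0.05 with 5 lower means on the 11 arrays. Among them TFE3, a transcription factor of lysosomal and mitochondrial genes, was higher in CON at an unadjusted p under 0.05 (0.26, SE 0.07, adjusted p = 0.325 with limma), at 0.31 on the 11 arrays, and the nuclear receptor ESRRA differed by -0.13 (SE 0.07). PPARGC1A had the largest difference of the 12 regulators, 0.50 (SE 0.39), or 0.85 on the 11 arrays. On the 11 arrays TFE3 and PPARGC1A were the 2 regulators higher at an unadjusted p under 0.05, and 0 were lower. With all 16 arrays no gene of these 6 lists passed limma after adjustment (lowest adjusted p = 0.325).

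Set beside them were 37 genes with symbols of respiratory complex I (NDUF), picked by symbol alone and called complex I genes here. Of these, 33 had lower means in CON (median -0.18, or -0.02 on the 11 arrays), and 7 were lower and 1 higher at an unadjusted p under 0.05. With the 11 arrays 22 of 37 had lower means, and 2 were lower and 3 higher at that p. Of 69 cytosolic ribosomal protein genes 48 had (median -0.05, or -0.03 on the 11 arrays), 13 of them at an unadjusted p under 0.05, and with the 11 arrays 45 of 69 had, 10 lower and 2 higher at that p. In CON 7 complex I genes averaged -0.68 and cytosolic ribosomal protein genes -0.09, beside -0.69 for the members. Complex I pairs had a median correlation of 0.48 over 16 arrays and 0.44 on the 11, and pairs of cytosolic ribosomal protein genes 0.18 and 0.10. The cytosolic list was picked by symbol too. Its group means ran from 3.32 (RPL10L) to 11.87 (RPL23), beside a highest value of 12.66 on any array. The part of these levels in its correlations and in its CON 7 average was not tested. Of all probe sets, 5.1% were lower and 3.57% higher at an unadjusted limma p under 0.05, or 4.88% and 3.75% on the 11 arrays. The 2 of 37 complex I genes lower on the 11 arrays (5.405%) were near that share. No test between these lists was made.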

How the data were processed

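RNA of 16 needle biopsies was labelled with biotin and hybridised to Affymetrix arrays, 1 per heifer, per the labels. The authors deposited log2 values; the submitters' processing notes name GCOS and RMA and no version. The log base is not stated and was read from the values (2.72 to 12.66). Chip definition, build and filters were not given in the sources used here. Symbols came from the platform annotation: 18790 probe sets had 1 symbol, 385 several and 7598 none. Of the 77 members, 76 gene IDs matched the RefSeq table of ARS-UCD2.0 with the same symbol, and 1 had no ID. A probe set listed under both MRPL12 and SLC25A10 was left out.

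CON was compared with NOCON by limma 3.58.1 (lmFit and eBayes, R 4.3.3) on all 26773 probe sets, with no covariate and Benjamini-Hochberg adjustment across the table. Exact permutation tests used all 12870 regroupings. The limma step was tested on simulated data. P-values measure the spread between heifers, which includes that of biopsy, RNA and array. Replicate numbers are shared between groups but mark no common origin in the labels.

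Members, gene lists and tests were chosen with earlier results of these data known. Named members, by rule, are the 4 with the smallest p per subunit, the 3 higher in CON with the smallest p, the MRPS18 paralogues, the 3 with the highest and the 3 with the lowest median correlation, the 2 per subunit with the largest SD, those with disagreeing probe sets, MRPL12, MRRF, and the 2 genes with the smallest p per pathway list. The extremes of single arrays, neighbours, dim members, members whose sign turned, MRPS5, MRPS30, RBFA, PPARGC1A, KRT18, HBB, CSN1S2 and CSN2 were named after their values were seen. So were KRT8, ERBB3, GATA3, JCHAIN, RPL10L and RPL23. Alternatives were a filter on dim probe sets (brightest 60% kept), robust eBayes with a trend, median centring, quantile normalization, array weights, the replicate block, the first principal component, each array left out, fits without the 5 low-correlation arrays, the mean of all probe sets, subunits by structure and, added after seeing the data, a fit without CON 7 and NOCON 5.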

Additional observations from a re-analysis of the deposited data

Results flagged for a closer look

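Dixon's ratio, the gap of the most extreme array to the next divided by the range of its group of 8, was above the 95% critical value in 19 of 46 group values tested. The rate of about 1 in 20 that chance gives does not apply to these values, since members named for their large spread or their correlations (MRPL18, MRPL20, MRPS10 and MRPS23 among them) are chosen on what single arrays can set. CON 7 was the low array for MRPS23 (0.838), MRPL18 (0.768), MRPL20 (0.761), MRPS10 (0.737), MRPL27 (0.653), MRPL21 (0.652), MRPL58 (0.62), MRPL24 (0.608), MRPS16 (0.577) and MRPL23 (0.548), as well as for the average of the large subunit (0.561) and of all members (0.546), and the high array for MRPL33 (0.64). NOCON 1 was the low array for MRPS10 (0.768), MRPL18 (0.744) and MRPL20 (0.726) and the high array for MRPL33 (0.61). NOCON 5 was the high array for MRPL58 (0.65) and the average of the large subunit (0.565). Over all 77 members, 37 of 154 group values exceeded the limit, 20 of them with CON 7 low. These arrays are 3 of the 5 low-correlation arrays.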

How the results depend on the processing

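The count of 16 probe sets passing an adjusted p of 0.05 became 67 with array weights, 44 with the first principal component as covariate, 35 at an adjusted p of 0.10 and 4 with the replicate block, and ran from 16 to 20 with 1 array left out. With array weights, where CON 7 had a weight of 0.0691, MRPL23 (-0.48, adjusted p = 0.0198 with limma) and MRPS18C (-0.46, adjusted p = 0.0336) passed. No member passed 0.05 in the other fits. The 35 probe sets at an adjusted p of 0.10 included MRPL23 and MRPS18C, each at 0.0971 with limma in the main fit. Over all their alternatives, adjusted p ran from 0.0198 to 0.433 for MRPL23 and from 0.0336 to 0.317 for MRPS18C. The 23 members lower at an unadjusted p under 0.05 became 13, and the 73 with lower means 45, without the 5 low-correlation arrays; with 1 array left out these counts ran from 16 (without NOCON 5) to 27 and from 62 (without CON 7) to 75. The median difference ran from -0.24 to -0.14 with 1 array left out, from -0.24 to -0.14 for the large and from -0.25 to -0.11 for the small subunit, each nearest 0 without CON 7. It was -0.15 with quantile normalization, -0.13 with the principal component, -0.0997 without CON 7 and NOCON 5, -0.075 with array weights and -0.03 without the 5 low-correlation arrays, so its size depended on these settings. The median pairwise correlation was 0.637 with median centring, 0.3745 with quantile normalization, 0.23 without the 5 low-correlation arrays, 0.26 without CON 7 and NOCON 5, and from 0.3445 (without CON 7) to 0.56 (without NOCON 1) with 1 array left out.

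Without the 5 low-correlation arrays the sign turned for 30 of 77 members, MRPL47 (-0.34 to 0.0033), MRPS36 (-0.33 to 0.04), MRPL55 (-0.29 to 0.03) and MRPL13 (-0.27 to 0.07) among them. MRPS18B was at 0.23 with array weights, 0.0065 with quantile normalization, 0.20 with the principal component, 0.33 without the 5 low-correlation arrays, 0.21 without CON 7 and NOCON 5, and from -0.094 to 0.14 with 1 array left out, above 0 in 7 of those fits. MRPL36 was at -0.043 with array weights and -0.040 without the 5 low-correlation arrays. MRPS27 was at -0.0063 with median centring, -0.012 with quantile normalization and from -0.0044 to 0.049 with 1 array left out. MRPL33 was at 0.0037 with quantile normalization and from -0.18 to 0.032 with 1 array left out. MRPS10 was at 0.037 with the principal component and 0.0088 without CON 7 and NOCON 5. The cause was not tested. Same-numbered arrays did not deviate together (correlations of deviations from -0.427 to 0.292, over 0.1 in 2 of 8 pairs), so the replicate block joins arrays that share a number alone; under it 22 members had an unadjusted p under 0.05. Detection per probe set was not assessed, which limits the dim members most.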
